A study of Mus musculus with 24 samples.

Results

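The genes described here encode the replicative helicase of the cell and the factors that load and start it: Mcm2, Mcm3, Mcm4, Mcm5, Mcm6, Mcm7, Mcm10, Cdc45, Cdc6 and Cdt1. They were taken from the deposited tables by gene name. All 10 were present among the 49315 genes of the count table, and all 10 passed the filter on low counts that kept 17216 genes for testing.

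Bulk RNA sequencing was done on mouse liver in 4 groups of 6 libraries. Tumour-bearing livers carried AKT and YAP1, a kinase and a transcriptional coactivator that drive bile duct cancer (cholangiocarcinoma) when a transposon inserts them into the genome; control livers received the vector without them. Both states were studied in Mdr2-/- animals. Their deleted gene, Abcb4, also called Mdr2, encodes the phospholipid transporter of the bile canaliculus. Wild-type mice were the other genotype. The groups are therefore Mdr2-/- tumour (AKT/YAP1, labelled CCA.Mdr2-/-), Mdr2-/- control (empty vector), wild-type tumour (AKT/YAP1) and wild-type control (empty vector), and what they share is a transduction. The labels used here give no age, sex, strain, promoter of the oncogenes or transduced cell type. They speak of individual livers without saying that every library is a different animal, so a p-value here speaks of the spread between libraries, which may be technical.

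Before a cell copies its DNA, the origin recognition complex recruits Cdc6 and Cdt1, which load the ring of Mcm2 to Mcm7 onto origins; this loading is called licensing. In S phase Cdc45 and the GINS proteins join the ring and turn it into an active helicase, and Mcm10 helps to start and stabilise it. Most adult hepatocytes rest outside the cell cycle with few licensing proteins, and the E2F transcription factors are known to induce these genes when cells re-enter it.

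Promoter sequences are shown for 4 genes because E2F sites are the known common feature of the family. Among the 4, Mcm10, whose RNA behaved differently from the rest, has none of the E2F letters given below. Mcm2 and Cdc45, not shown, have none either, yet their RNA followed the set. Their Pearson correlations with the mean of the other 9 genes were 0.982 and 0.920. Each printed sequence is the stretch of 170 bases before the start site in RefSeq's promoter table. Its build, GRCm38.p6, is not the mm39 build named for the counts. Capitals mark the E2F letters TTGGCGC or TTCCCGC or TTCGCGC or TTGCCGC on either strand, which can overlap each other. The stretches are chr1:128359706-128359875 (minus strand) for Mcm6, chr8:75109339-75109508 (plus) for Mcm5, chr11:98907981-98908150 (plus) for Cdc6 and chr2:5012792-5012961 (minus) for Mcm10.
Mcm6: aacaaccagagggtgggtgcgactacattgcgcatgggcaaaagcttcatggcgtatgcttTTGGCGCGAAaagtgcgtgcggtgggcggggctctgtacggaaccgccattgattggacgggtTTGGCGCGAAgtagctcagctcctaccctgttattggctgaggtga
Mcm5: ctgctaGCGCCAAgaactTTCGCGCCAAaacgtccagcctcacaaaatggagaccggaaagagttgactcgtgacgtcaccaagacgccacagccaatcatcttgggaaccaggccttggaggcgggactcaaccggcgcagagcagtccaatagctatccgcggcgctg
Cdc6: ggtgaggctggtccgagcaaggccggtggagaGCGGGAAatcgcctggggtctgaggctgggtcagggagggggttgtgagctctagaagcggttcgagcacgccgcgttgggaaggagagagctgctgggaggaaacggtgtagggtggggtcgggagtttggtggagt
Mcm10: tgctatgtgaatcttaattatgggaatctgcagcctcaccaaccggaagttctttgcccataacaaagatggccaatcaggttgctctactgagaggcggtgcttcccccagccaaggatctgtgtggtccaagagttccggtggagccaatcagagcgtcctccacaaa
In windows of 250 bases before to 50 after the start, E2F letters stood in 7 of 10, or 70%. The share was 9.57% of all 32851 windows of the table. Before the start alone the shares were 50% and 7.89%, since Mcm3 and Cdt1 held such letters only after it. The 10 windows belong to 9 of the genes, Mcm7 having 2; Mcm3, Mcm5, Mcm6, Mcm7, Cdc6 and Cdt1 held such letters. The CCAAT box stood in 80% of the windows and in 37.4% of all, and the GC box (GGGCGG) in 80% and in 35.7%. The CHR letters TTTGAA, an element of genes of later cell cycle phases, stood in 20% of the windows, those of Mcm2 and Cdc45, against 17.9% of all. A match of letters is a description of these windows and not a bound site.

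Total counts were 20976459 to 30288385 per library, and levels are given as CPM, counts per 1000000 after TMM scaling, unless TPM is named. Abcb4 had 21.7 to 59.3 CPM in Mdr2-/- tumour livers and 23.8 to 41.6 in Mdr2-/- controls, against 165 to 361 CPM in wild-type tumour livers and 244 to 377 in wild-type controls, which matched the genotype labels. Hepatocyte markers (9 of 10 listed genes were in the table) summed to 34116 to 68777 CPM in Mdr2-/- tumour, 81599 to 99420 in Mdr2-/- control, 57466 to 103854 in wild-type tumour and 123997 to 151087 in wild-type control livers. Cholangiocyte markers (12 of 12) summed to 1122 to 4071, 90.6 to 360, 168 to 1408 and 69.7 to 142 CPM in the same order, and no marker was at 0 throughout. Over all genes, Mdr2-/- tumour replicate 1 and wild-type tumour replicate 6 stood apart from their groups on the first principal components. Among Mdr2-/- controls, replicate 5 had the highest level of 10 of the 10 genes, and replicate 6 was among the 2 highest for 8 of them. Both have sample title numbers of 2000 or above, whereas the other 4 Mdr2-/- controls have lower ones. What the number stands for is not stated. Below 2000 were 3 of 6 Mdr2-/- tumour, 4 of 6 Mdr2-/- control, 0 of 6 wild-type tumour and 5 of 6 wild-type control libraries.

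**Figure D1:**
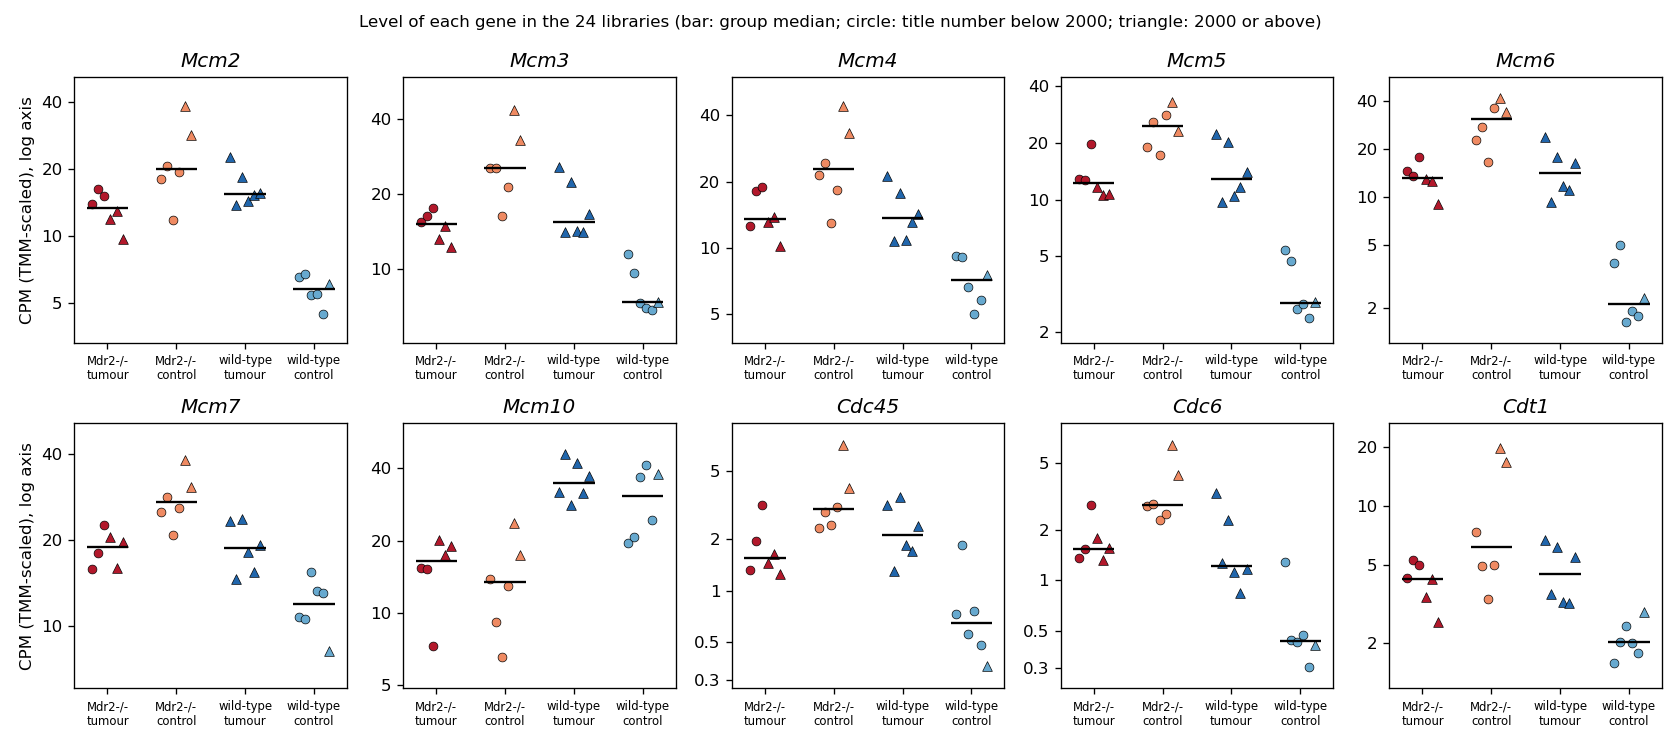
CPM of each gene (log axis) in the 24 libraries by group, with a bar at the group median, circles for title numbers below 2000 and triangles for the others. Mcm2 to Mcm7, Cdc45, Cdc6 and Cdt1 have their lowest medians in wild-type controls and their highest in Mdr2-/- controls, while the medians of Mcm10 are higher in both wild-type groups.

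Among the comparisons of 1 group with another, the control livers of the 2 genotypes had the largest median change over these genes. Of the 10 genes, 9 were higher and 1, Mcm10, was lower in Mdr2-/- than in wild-type controls, against a background of 26.2% of all tested genes called higher and 24.3% called lower (edgeR quasi-likelihood test, Benjamini-Hochberg adjusted p under 0.05). The median log2 fold change over the 10 genes was 2.06, beside 0.03 over all genes tested. In bulk tissue, more cells of a cycling kind and more RNA per cell cannot be told apart.

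Within the ring, Mcm6 changed the most. Its level in Mdr2-/- controls was 16.5 to 41.8 CPM (median 30.9), against 1.64 to 4.98 CPM (median 2.12) in wild-type controls. The lowest Mdr2-/- control was above the highest wild-type control, and the log2 fold change was 3.46 ± 0.30 (SE, edgeR adjusted p = 2.09e-09). Mcm5, which with Mcm2 borders the gate of the ring, had 17.2 to 32.9 CPM (median 24.4) in Mdr2-/- controls and 2.35 to 5.43 CPM (median 2.84) in wild-type controls. These did not overlap either, with a log2 fold change of 2.82 ± 0.25 (edgeR adjusted p = 3.79e-09). Mcm2, the subunit that also binds histones, had 11.9 to 38.3 CPM (median 20.05) in Mdr2-/- controls, against 4.49 to 6.79 CPM (median 5.81) in wild-type controls. It rose by 1.97 ± 0.21 (edgeR adjusted p = 7.36e-08).

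Mcm4 and Mcm7 form, with Mcm6, a core that unwinds DNA by itself in vitro. Mcm4 had 12.99 to 44.0 CPM (median 22.8) in Mdr2-/- controls and 5.02 to 9.16 CPM (median 7.13) in wild-type controls, and rose by 1.83 ± 0.25. Mcm7 had the smallest rise of the ring, with 20.9 to 38.2 CPM (median 27.2) in Mdr2-/- controls and 8.18 to 15.5 CPM (median 11.9) in wild-type controls, a log2 fold change of 1.24 ± 0.16. Mcm3, whose yeast counterpart binds Cdc6 during loading, had 16.4 to 43.6 CPM (median 25.4) in Mdr2-/- controls and 6.85 to 11.5 CPM (median 7.36) in wild-type controls. Its log2 fold change was 1.73 ± 0.21 (edgeR adjusted p = 4.18e-07).

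The loaders and the activator had lower CPM. Cdc6, the ATPase that brings the ring to the origin complex, had 2.27 to 6.43 CPM (median 2.81) in Mdr2-/- controls and 0.305 to 1.28 CPM (median 0.434) in wild-type controls. It rose by 2.69 ± 0.38 (edgeR adjusted p = 3.99e-06), although the wild-type level rests on 7 to 21 counts per library. Cdt1, the carrier of the ring, had 3.34 to 19.6 CPM (median 6.15) in Mdr2-/- controls and 1.59 to 2.86 CPM (median 2.01) in wild-type controls, and rose by 2.15 ± 0.35. Replicates 5 and 6 of the Mdr2-/- controls, at 19.6 and 16.7 CPM, lay far above the other 4, whose highest was 7.32 CPM. Cdc45, the activator that stays with the moving helicase, had 2.33 to 7.10 CPM (median 2.997) in Mdr2-/- controls and 0.363 to 1.86 CPM (median 0.646) in wild-type controls, with 8 to 34 counts behind the wild-type values. Its log2 fold change was 2.21 ± 0.37 (edgeR adjusted p = 3.33e-05).

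Mcm10 went the other way. It had 6.54 to 23.8 CPM (median 13.4) in Mdr2-/- controls, against 19.5 to 41.2 CPM (median 30.7) in wild-type controls. The groups overlapped, and the log2 fold change was -1.11 ± 0.26 (edgeR adjusted p = 0.00125). On the authors' TPM it was -0.57 with limma on log2(TPM + 1), adjusted p = 0.0579, and not called. In 9 of the 10 genes all 6 Mdr2-/- controls lay above all 6 wild-type controls, which held for 13.7% of all genes tested. Without Mdr2-/- control replicates 5 and 6 the same 10 genes were called, with Mcm6 at 3.25, Mcm2 at 1.60 and Cdt1 at 1.28. The 10 were also called among libraries with title numbers below 2000 (4 against 5; Mcm6 3.22, Mcm10 -1.41) and among those of 2000 or above (2 against 1; Mcm6 3.99, Mcm10 -0.92), where the lone wild-type control is assumed to vary like the other groups.

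In wild-type mice, tumour-bearing livers had more RNA of 9 of the 10 genes than controls; 16.9% of all genes were called higher and 11.5% lower. The median over the 10 genes was 1.33, against 0.03 over all genes. Mcm6 had 9.32 to 23.9 CPM (median 14.03) in wild-type tumour livers and 1.64 to 4.98 CPM in wild-type controls. It rose without overlap by 2.47 ± 0.29 (5.53-fold, edgeR adjusted p = 7.63e-07). Mcm5 had 9.69 to 22.3 CPM (median 12.8) in wild-type tumour livers and at most 5.43 CPM in wild-type controls, a rise of 2.09 ± 0.25 (adjusted p = 8.7e-07 in the same edgeR fit). This comparison and that of the control livers share the wild-type controls.

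The other ring subunits rose by less. Mcm2 had 13.8 to 22.6 CPM (median 15.4) in wild-type tumour livers and changed by 1.52 ± 0.21, Mcm3 had 14.1 to 25.7 CPM (median 15.4) and changed by 1.11 ± 0.20, and neither overlapped with the wild-type controls. Mcm4 had 10.7 to 21.3 CPM (median 13.7) in wild-type tumour livers, again without overlap, and changed by 1.02 ± 0.24. Mcm7 had 14.6 to 23.8 CPM (median 18.7), overlapped with its controls and changed by 0.68 ± 0.16 (edgeR adjusted p = 0.00272).

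Among the loaders and activators, Cdc6 had 0.834 to 3.30 CPM (median 1.22) in wild-type tumour livers and 0.305 to 1.28 CPM in wild-type controls, with a log2 fold change of 1.61 ± 0.38. Cdc45 had 1.31 to 3.53 CPM (median 2.12) in wild-type tumour livers and changed by 1.57 ± 0.37. Both overlapped with the controls through their highest control library. Cdt1 had 3.21 to 6.69 CPM (median 4.51) in wild-type tumour livers and at most 2.86 CPM in wild-type controls, and rose by 1.15 ± 0.35 (edgeR adjusted p = 0.0153). Mcm10 had 28.3 to 45.9 CPM (median 34.7) in wild-type tumour livers, against 19.5 to 41.2 CPM in wild-type controls, and was not called (0.26 ± 0.26, edgeR adjusted p = 0.475). Across the 10 genes, 6 had no overlap between wild-type tumour and control livers, which held for 7.27% of all genes tested.

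The wild-type tumour livers were not uniform. Replicates 1 and 3 were the 2 highest for 9 of the genes, with Mcm6 at 23.9 and 17.9 CPM, whereas replicate 2 was lowest for 6 of them. Title number and tumour state are nearly the same split in wild type, since all 6 tumour libraries have 2000 or above and 5 of 6 controls do not. With the title range as a covariate 7 of the 9 genes were still called; Mcm4 was at 0.82 (edgeR adjusted p = 0.0564) and Cdt1 at 0.62 (adjusted p = 0.283). Among libraries of 2000 or above, 6 tumour livers against 1 control, 5 were called. That fit assumes that the lone control varies like the other groups. Title range and tumour state cannot be told apart further in wild type.

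In Mdr2-/- mice the tumour comparison ran in the opposite direction. Tumour-bearing livers had less RNA of 9 of the 10 genes than controls, where 17% of all genes were called lower and 17.9% higher, and 0 of the 10 were higher. The median over the 10 genes was -0.89, against 0.04 over all genes. In every gene the groups overlapped; 7.62% of all genes had every tumour library below every control. Fitted levels of the 9 genes were between 0.436 and 0.667 of the controls. With total library size as the scaling 6 of the 9 were called (Mcm7, Cdc45 and Cdc6 were not), and with limma on TPM 6 at log2(TPM + 1) and 3 at log2(TPM + 0.1).

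Mcm6 had 9.05 to 17.9 CPM (median 13.2) in Mdr2-/- tumour livers, against 16.5 to 41.8 CPM (median 30.9) in Mdr2-/- controls. Its lowest control lay below its highest tumour liver, and it fell by 1.15 on the log2 scale (SE 0.26, edgeR adjusted p = 0.00244). Mcm5 had 10.5 to 19.7 CPM (median 12.2) in Mdr2-/- tumour livers and 17.2 to 32.9 CPM in Mdr2-/- controls, a change of -0.90 ± 0.23 (edgeR adjusted p = 0.00517). Replicate 3 of the tumour livers, at 19.7 CPM, made the overlap, since the next highest had 12.9 CPM. Mcm3 had 12.3 to 17.6 CPM (median 15.2) in Mdr2-/- tumour livers and 16.4 to 43.6 CPM in Mdr2-/- controls, a change of -0.88 ± 0.20 (edgeR adjusted p = 0.00231).

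Mcm2 had 9.77 to 16.3 CPM (median 13.4) in Mdr2-/- tumour livers and 11.9 to 38.3 CPM in Mdr2-/- controls, and changed by -0.77 ± 0.20. Mcm4 had 10.2 to 18.9 CPM (median 13.5) in Mdr2-/- tumour livers and 12.99 to 44.0 CPM in Mdr2-/- controls, and changed by -0.83 ± 0.24. Mcm7 had 15.9 to 22.6 CPM (median 18.9) in Mdr2-/- tumour livers and 20.9 to 38.2 CPM in Mdr2-/- controls, and changed by -0.59 ± 0.16. For Mcm2 and Mcm4, Mdr2-/- control replicate 3 lay among the tumour livers, as did replicate 4 for Mcm4.

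Of the loaders and activators, Cdt1 fell most, with 2.56 to 5.29 CPM (median 4.26) in Mdr2-/- tumour livers and 3.34 to 19.6 CPM in Mdr2-/- controls (-1.20 ± 0.33, edgeR adjusted p = 0.00922). Cdc6 had 1.33 to 2.81 CPM (median 1.54) in Mdr2-/- tumour livers and 2.27 to 6.43 CPM in Mdr2-/- controls (-1.02 ± 0.33, edgeR adjusted p = 0.0215). Cdc45 had 1.25 to 3.18 CPM (median 1.55) in Mdr2-/- tumour livers and 2.33 to 7.10 CPM in Mdr2-/- controls (-1.01 ± 0.34, edgeR adjusted p = 0.0232). Mcm10 had 7.25 to 20.1 CPM (median 16.5) in Mdr2-/- tumour livers and 6.54 to 23.8 CPM in Mdr2-/- controls, and was not called (0.18 ± 0.26, edgeR adjusted p = 0.614).

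This fall rested in part on 2 control libraries. Without Mdr2-/- control replicates 5 and 6, an alternative chosen after seeing the data, 3 of the 10 genes were called: Mcm6 (-0.95), Mcm5 (-0.80) and Mcm3 (-0.58). The other 6 of the 9 kept a negative value but not the call, among them Mcm2 at -0.40 (edgeR adjusted p = 0.0998) and Cdt1 at -0.32 (adjusted p = 0.354). Mcm10 was at 0.56 there (adjusted p = 0.128 in the same edgeR fit), with an unadjusted p under 0.05. Without replicate 5 alone the calls of Cdc45 and Cdc6 were lost. Among libraries with title numbers below 2000, 3 tumour livers against 4 controls, 0 of the 10 genes were called by edgeR (4 had an unadjusted p under 0.05) and the 9 values were between -0.79 and -0.13. Among those of 2000 or above, 3 against 2, all 9 were called. The share of 7 nuclear non-coding RNAs (Gm26917, Malat1, Neat1, Rmrp, Rn7sk, Rpph1 and Xist) was 4.599 to 7.95% in Mdr2-/- tumour livers and 1.74 to 4.29% in Mdr2-/- controls, without overlap. With it as a covariate 1 gene, Mcm5 (-1.04), was called and the other 8 stayed negative. Their standard errors grew. Values with it, and without it in parentheses, were -1.09 ± 0.35 (-1.15) for Mcm6 and -1.10 ± 0.47 (-1.02) for Cdc6. For Mcm3 they were -0.78 ± 0.27 (-0.88), for Mcm7 -0.51 ± 0.21 (-0.59) and for Mcm2 -0.63 ± 0.26 (-0.77). For Mcm4 they were -0.62 ± 0.32 (-0.83) and for Cdc45 -0.77 ± 0.45 (-1.01). Cdt1, at -0.55 ± 0.45 (-1.20), moved most. The part of the nuclear RNA share in the result cannot be told apart from tumour state in these groups.

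**Figure D2:**
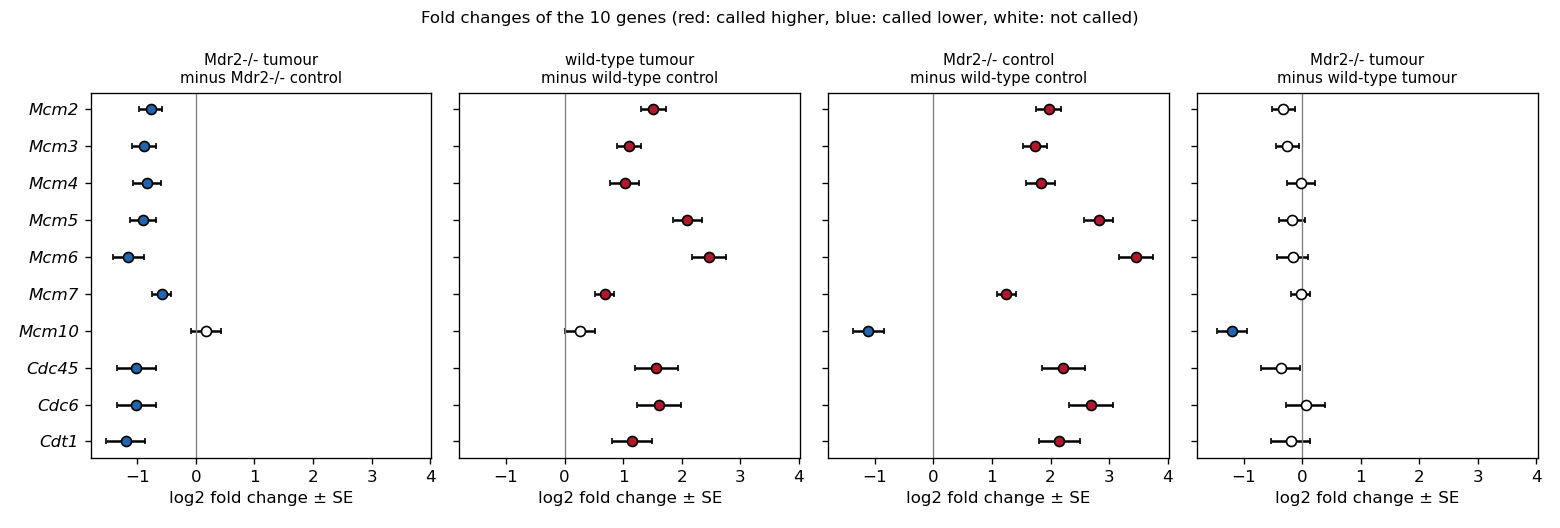
Log2 fold change ± SE of the 10 genes from edgeR in 4 comparisons, each named above its panel as group minus group; filled points were called at an adjusted p under 0.05. Called points, Mcm10 aside, lie left of 0 for the tumour effect in Mdr2-/- mice and right of 0 for that in wild type and for genotype in controls; between the tumour-bearing livers only Mcm10 is filled.

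The difference between the tumour effects was itself tested. It equals the genotype difference in tumour-bearing livers minus that in controls, so it is not separate from the comparisons it is made of. It was called lower in Mdr2-/- mice for 9 of the 10 genes, beside 13.4% of all genes called lower and 11.9% called higher, with log2 differences from -3.62 ± 0.39 for Mcm6 (edgeR adjusted p = 1.29e-06) and -2.996 ± 0.34 for Mcm5 to -1.27 ± 0.23 for Mcm7. Cdc6 was at -2.63 ± 0.50, Cdc45 at -2.58 ± 0.50, Cdt1 at -2.35 ± 0.48 and Mcm2 at -2.29 ± 0.29. Mcm3 was at -1.99 ± 0.29 and Mcm4 at -1.86 ± 0.34. Mcm10 was at -0.09 ± 0.37 (edgeR adjusted p = 0.882). The same count of 9 was called under every alternative that kept several libraries in each group. Those without Mdr2-/- control replicates 5 and 6 and with the nuclear RNA covariate are included.

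Between the tumour-bearing livers of the 2 genotypes, 9 of the 10 genes were not called. Their log2 differences, Mdr2-/- minus wild type, were between -0.37 and 0.06, with standard errors of 0.16 to 0.34. Median levels were 13.2 and 14.03 CPM for Mcm6, 12.2 and 12.8 CPM for Mcm5 and 18.9 and 18.7 CPM for Mcm7, each with Mdr2-/- tumour livers first. A p that misses the threshold does not show equal levels. Mcm10 was lower, with 7.25 to 20.1 CPM in Mdr2-/- tumour livers, against 28.3 to 45.9 CPM in wild-type tumour livers. The groups did not overlap, as for 1.39% of all genes in that direction, and the log2 fold change was -1.20 ± 0.26 (edgeR adjusted p = 0.00378; 4% of all genes were called lower and 7.13% higher). It was called in each alternative that gave a value, from -1.28 to -0.84. Among libraries of 2000 or above, 3 Mdr2-/- against 6 wild-type, it was at -0.97. Mcm10 was therefore called for genotype in both states, in controls on counts but not on TPM, and for tumour state in neither genotype.

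Order among the genes can be read only per length, here from the authors' TPM. The order depends on the lengths used, and that of the ring subunits changed with coding lengths, as given below. In Mdr2-/- tumour livers the medians ran from Mcm7 (10.9 TPM), Mcm3 (10.02) and Mcm4 (9.86) to Cdc45 (1.82) and Cdc6 (0.785). In Mdr2-/- controls Mcm6 (14.6 TPM), Mcm3 (14.5), Mcm5 (14.02), Mcm4 (13.6) and Mcm7 (12.97) lay close together, within each other's spread. In wild-type tumour livers Mcm10 had the highest median (9.76 TPM), ahead of Mcm3 (9.17), with overlapping ranges. In wild-type controls Mcm10 (6.93 TPM) again led, followed by Mcm7 (4.39), and Mcm6 (0.786), Cdc45 (0.450) and Cdc6 (0.135) were last.

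The ring needs its 6 subunits in equal number, so their RNAs were set against their sum. The summed TPM of Mcm2 to Mcm7 was 36.8 to 63.6 (median 49.5) in Mdr2-/- tumour livers, 48.3 to 132.6 (median 73.6) in Mdr2-/- controls, 29.7 to 66.0 (median 45.3) in wild-type tumour livers and 13.8 to 16.9 (median 15.0) in wild-type controls. Wild-type controls lay below every other library and varied least. Mcm6 made up 14.1 ± 1.45% of the sum in Mdr2-/- tumour livers, 17.5 ± 2.62% in Mdr2-/- controls and 14.1 ± 1.61% in wild-type tumour livers, against 6.19 ± 2.20% in wild-type controls (SD, n = 6). Mcm5 made up 15.9 ± 1.74%, 17.0 ± 2.69% and 16.1 ± 1.44% in the same groups, and 9.21 ± 1.99% in wild-type controls. Mcm7 was at 21.2 ± 3.51%, 17.8 ± 1.95% and 19.6 ± 2.01%, and 29.8 ± 8.26% in wild-type controls. Among the wild-type controls, replicates 3, 4 and 5 had Mcm7 shares of 36.7 to 38.4%, and replicates 1, 2 and 6 had 21.7 to 23.0%.

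The lowest of the 6 RNAs was Mcm2 in all 6 libraries of each of the other groups, but Mcm6 in 5 of the 6 wild-type controls. With counts divided by coding length, Mcm2 still had the lowest mean share in Mdr2-/- tumour (13.4%, Mcm6 next at 14.8%) and Mdr2-/- control livers (12.4%, Mcm4 next at 14.7%), but in wild-type tumour livers Mcm4 (13.9%) and Mcm6 (14.7%) were below Mcm2 (15.3%). Mcm6 stayed lowest in wild-type controls, at 6.54%.

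**Figure D3:**
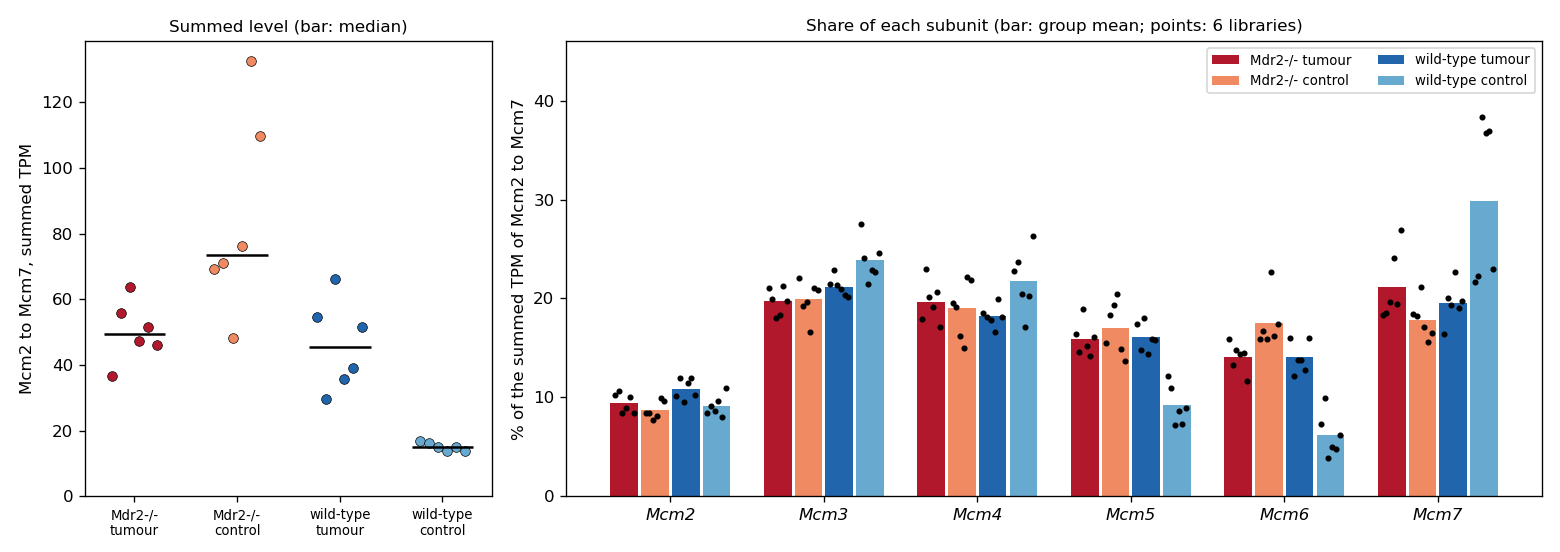
Left, summed TPM of Mcm2 to Mcm7 in each library with a bar at the group median; right, each subunit's percent of that sum, with bars for the group mean and points for the 6 libraries. Wild-type controls have the lowest sums (13.8 to 16.9) and, within them, small shares of Mcm5 and Mcm6 and a large share of Mcm7.

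Across the 24 libraries, 9 of the genes followed one another: the Pearson correlation of each with the mean of the remaining 9 was 0.878 (Mcm7) to 0.982 (Mcm2), and it was -0.40 for Mcm10. The libraries share groups and scaling, so this is a description. Within groups Mcm10 showed no single pattern. It was lowest (7.25 CPM) in the Mdr2-/- tumour replicate 3 that was highest for 7 of the genes, and low (19.5 and 20.8 CPM) in wild-type control replicates 1 and 2, which were high for several, but it was highest (23.8 CPM) in Mdr2-/- control replicate 5, as were all the others. The 10 other genes most like the set over the 24 libraries, by correlation with its mean, were Uhrf1 (0.951), Rpa2, Mms22l, Chek1, Dtl, Wdhd1, Pole, Slfn9, Hells and Lig1 (0.916).

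The rest of the replication pathway was described through lists, by counts and medians only. Of all tested genes, 17.9% were called higher and 17% lower in Mdr2-/- tumour livers, and 16.9% and 11.5% in wild-type tumour livers. Between controls these shares were 26.2% and 24.3%, between tumour-bearing livers 7.13% and 4%. For the difference of tumour effects they were 11.9% and 13.4%. A list count near these shares is no result about the list. Origin recognition genes had calls in both directions. In Mdr2-/- tumour livers 3 of 6 were called higher and 0 lower (Orc4 at 1.15, Orc2 at 0.61 and Orc6 at 0.53), with a median of 0.33. With the nuclear RNA covariate 0 of 6 were called by edgeR, 0 had an unadjusted p under 0.05, and the median was -0.01. In wild-type tumour livers Orc1 (1.77) and Orc6 (0.68) were higher and Orc3 (-0.34) and Orc5 (-0.42) lower. In Mdr2-/- against wild-type controls Orc1, the subunit known as an E2F target, was higher (2.16) and Orc3, Orc4 (-1.37) and Orc5 were lower.

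Of 11 tested genes of licensing control, 0 were higher and 3 lower in Mdr2-/- tumour livers, namely Kat7 (-0.71), a histone acetylase at origins, the ring-binding protein Mcmbp (-0.44) and Cul4a (-0.35). With the nuclear RNA covariate 0 were called by edgeR, 2 were lower at an unadjusted p under 0.05, and the median was -0.04, beside -0.30 without it. In wild-type tumour livers 2 were higher and 2 lower, led by Dtl (2.06), the adaptor that marks Cdt1 for destruction, and Ccnf (0.92). In controls 5 were higher and 1 lower in Mdr2-/- mice, with Dtl at 2.39, Ccnf at 1.55 and Gmnn, the inhibitor of Cdt1, at 0.67. Gmnn was not called for tumour state in either genotype (-0.30 in Mdr2-/- and 0.46 in wild type).

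Helicase activation genes were higher in 10 of 15 cases and lower in 0 in wild-type tumour livers (median 0.90), and higher in 12 and lower in 0 in Mdr2-/- against wild-type controls (median 1.01). Gins2, a GINS subunit, was at 2.57 in the wild-type tumour comparison and at 2.60 in controls, Clspn at 2.03 and 2.33, and Ticrr at 1.42 and 2.03. In Mdr2-/- tumour livers 0 were higher and 3 lower, Timeless (-1.13), Recql4 (-1.08) and Wdhd1 (-0.81), with a median of -0.02. That count of 3 in 15 was near the 17% of all tested genes called lower. Without Mdr2-/- control replicates 5 and 6, 0 were called by edgeR, while 1 was higher and 3 were lower at an unadjusted p under 0.05; with the nuclear RNA covariate 1 was lower. Gins2, at 0.10, was not called there.

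Fork genes, which copy and seal the DNA behind the helicase, had calls in the direction of the ring in all 3 comparisons. Of 26, 1 was higher and 14 lower in Mdr2-/- tumour livers (median -0.37), 18 higher and 1 lower in wild-type tumour livers (median 0.57), and 19 higher and 2 lower in Mdr2-/- against wild-type controls (median 0.80). Chaf1a, a histone chaperone of the fork, was at -1.30, 2.00 and 2.76 in these comparisons, and the ligase Lig1 at -0.86, 1.74 and 2.45. Without Mdr2-/- control replicates 5 and 6, 5 of the 26 were lower in Mdr2-/- tumour livers and 0 higher, and with the nuclear RNA covariate 6 and 0. Deoxynucleotide genes gave 1 higher and 0 lower of 8 in Mdr2-/- tumour livers, Rrm2b (0.71), 5 and 0 in wild-type tumour livers, and 4 and 0 in controls. In both of these alternatives 0 of the 8 were called higher in Mdr2-/- tumour livers by edgeR; at an unadjusted p under 0.05, 1 was higher without the 2 controls and 0 with the covariate.

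Of 4 other MCM proteins, Mcmbp was lower in both tumour comparisons (-0.44 in Mdr2-/- and -0.38 in wild type), and Mcmdc2 was lower in Mdr2-/- than in wild-type controls (-3.22). Mcm8 and Mcm9, which form a helicase of recombination repair, were called in no comparison. The test of the difference between tumour effects gave 11 of 15 helicase activation genes and 18 of 26 fork genes lower in Mdr2-/- mice. It gave 7 of 15 S and M phase genes lower, and 0 higher in each of these lists. Of 6 origin recognition genes 3 were higher and 1 lower (median 0.34), or 1 and 1 with the nuclear RNA covariate. Of 4 other MCM proteins 1 was higher and 0 lower, and of 18 E2F and pocket protein genes 3 and 5. Of 11 licensing control genes 0 were higher and 3 lower, and of 8 deoxynucleotide genes 0 and 3. The S and M phase count was 3 without the 2 libraries that stood apart, and 4 either without Mdr2-/- control replicates 5 and 6 or with the nuclear RNA covariate.

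Of 18 E2F and pocket protein genes, 2 were higher and 5 lower in Mdr2-/- tumour livers, 4 and 2 in wild-type tumour livers, and 4 and 5 in Mdr2-/- against wild-type controls. Between controls these counts were near the shares of all tested genes, 26.2% higher and 24.3% lower. For the tumour effect those shares were 17.9% and 17% in Mdr2-/- mice and 16.9% and 11.5% in wild type. The Mdr2-/- tumour counts were 0 and 1 without control replicates 5 and 6, and 0 and 0 by edgeR with the nuclear RNA covariate, where 3 were lower at an unadjusted p under 0.05. E2f1, an activator of licensing genes, had 6.13 ± 0.962 CPM in Mdr2-/- tumour, 8.14 ± 1.36 in Mdr2-/- control, 8.62 ± 1.29 in wild-type tumour and 2.36 ± 0.331 in wild-type control livers (SD, n = 6). It was at -0.41 for the tumour effect in Mdr2-/- mice, at 1.87 for that in wild type and at 1.79 between controls, all called. The first of these calls was lost without Mdr2-/- control replicates 5 and 6 (-0.28, edgeR adjusted p = 0.186) and with the nuclear RNA covariate (-0.33, adjusted p = 0.284). E2f8, a repressor of the family, was lower in wild-type tumour livers (-1.13) and in Mdr2-/- against wild-type controls (-1.61).

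Cyclins and markers of S and M phase had few calls in the Mdr2-/- tumour comparison. Of 15, 1 was higher there, Ccna2 (0.86), and 0 lower, with a median of 0.49, beside -0.89 for the licensing genes; Top2a, a topoisomerase of dividing cells, was at 0.60 and not called. In wild-type tumour livers 12 were higher and 0 lower (median 1.74), and between controls 13 and 0 (median 1.99). Between tumour-bearing livers, Top2a was higher in Mdr2-/- mice (0.86, edgeR adjusted p = 0.029), the only call among the 15, while the list's median was 0.66. Without Mdr2-/- control replicates 5 and 6, 0 of the 15 were called by edgeR in the Mdr2-/- tumour comparison, and 2 were higher at an unadjusted p under 0.05; with the nuclear RNA covariate 0 were called and 0 had such a p. The gap between the lists was not tested.

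**Figure D4:**
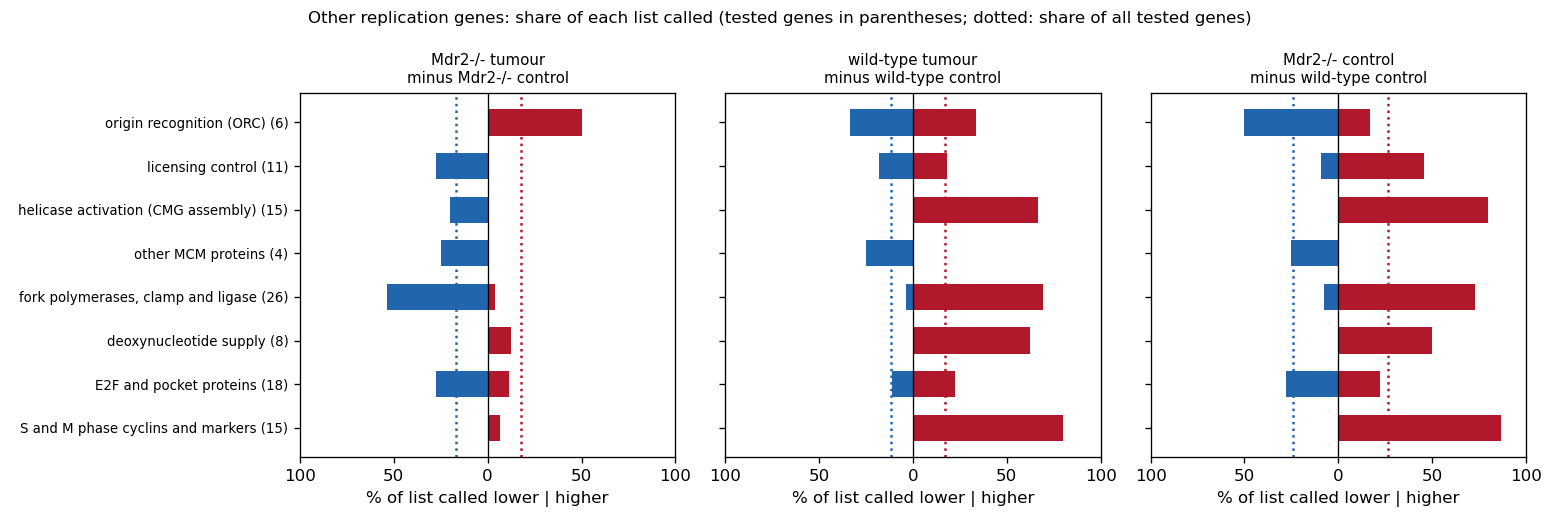
Percent of each list called lower (to the left) and higher (to the right) in 3 comparisons, with the number of tested genes in parentheses and dotted lines at the percent of all tested genes. Fork genes are mostly left of 0 in Mdr2-/- tumour livers and right of 0 in the other comparisons, and S and M phase genes have 0 calls to the left.

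Markers of other cells also differed between the groups, though not all in the order of these genes. Their part in these results was not tested. Of 12 cholangiocyte markers 7 were higher and 0 lower in Mdr2-/- tumour livers and 9 and 0 in wild-type tumour livers. In Mdr2-/- against wild-type controls 11 were higher and 0 lower. In these comparisons the counts were 3 and 1, 5 and 0, and 9 and 1 of 16 leukocyte and macrophage markers. They were 3 and 1, 6 and 0, and 7 and 0 of 10 stellate cell and fibroblast markers. For 9 hepatocyte markers they were 0 and 5, 0 and 6, and 0 and 5. For 8 endothelial markers they were 0 and 1, 1 and 0, and 2 and 1. For 8 erythroblast markers they were 0 and 1, 0 and 1, and 0 and 3. Leukocyte and macrophage markers (16 of 16) summed to 646 to 1292 CPM in Mdr2-/- tumour, 555 to 1042 in Mdr2-/- control, 413 to 724 in wild-type tumour and 330 to 465 in wild-type control livers. Stellate cell and fibroblast markers (10 of 10) summed to 1050 to 1490, 920 to 1490, 763 to 1212 and 544 to 660 CPM in that order. Endothelial markers (8 of 8) summed to 343 to 465, 459 to 569, 478 to 639 and 454 to 550 CPM. Erythroblast markers (8 of 8), of a cycling cell that can enter liver samples, summed to 363 to 737, 216 to 792, 372 to 805 and 492 to 1291 CPM.

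Neighbouring genes bear on what a count can mean, since the sources used here do not state whether reads were counted by strand. In GENCODE M21 (GRCm38; used for gene order only), Mcm7 overlaps Cops6 and Ap4m1, Cdc45 overlaps Ufd1 and Cdt1 overlaps Gm20388, so reads of these pairs may be mixed. Group means ran from 66.2 to 93.6 CPM for Cops6 and from 6.98 to 8.99 for Ap4m1, beside 11.9 to 28.2 for Mcm7. They ran from 22.2 to 26.2 CPM for Ufd1, beside 0.79 to 3.64 for Cdc45. Gm20388 was at 0 CPM in every group. Any part of mixing in the small rise of Mcm7, or in its large share in wild-type controls, was not tested. For the tumour effect in Mdr2-/- mice, that in wild type and genotype in controls, Cops6 was at -0.32 (called), -0.24 and -0.18. Ap4m1 was at -0.26, 0.31 and 0.36 in these comparisons and Ufd1 at -0.24, -0.04 and 0.10. Prkdc, which starts head to head with Mcm4, was called in none of these (0.20, -0.18 and -0.22). Piezo1, head to head with Cdt1, was at 0.03, 1.45 (called) and 1.24 (called). Tpra1, head to head with Mcm2, was at -0.64 (called), 0.07 and 0.80 (called). Paqr8, head to head with Mcm3, was at 0.62 (called), -0.41 and -0.43. For 2510002D24Rik, head to head with Cdc45, values were 0.09, 0.43 (called) and 0.43 (called). Neighbours in other orientations had calls in both directions. Hmox1 beside Mcm5 was at -0.93 (called), 0.24 and 0.83 (called), and Ube2v2 beside Mcm4 at 0.64 (called), -0.14 and -0.97 (called). Mir25, Mir93 and Mir106b, which lie within Mcm7, had a mean of at most 0.0167 CPM in any group. Levels of the mature microRNAs were not tested.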

How the data were processed

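RNA of mouse liver was sequenced in 24 libraries, 6 in each of 4 groups. Per the labels' protocols, ribosomal RNA was removed from total RNA by a FastSelect kit named for bacteria, and the rest was sequenced from NEBNext Ultra II libraries. The deposited tables hold raw counts per gene and TPM (transcripts per 1000000) made by the authors. The submitters' processing notes name mm39 and DESeq2, without a version; the aligner, the counter, the annotation and any strand setting were not given in the sources used here.

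Counts were tested with edgeR 4.0.16 (R 4.3.3): 1 quasi-likelihood fit of all 24 libraries with a mean per group, TMM factors, genes kept by filterByExpr at a minimum count of 10, and Benjamini-Hochberg adjustment over 17216 genes in each of 5 comparisons, called under 0.05. Values are log2 of the fitted fold change computed from the deposited counts, first-named group over the other. The biological coefficient of variation was 0.272. A total of 1 CPM stood for 16.4 to 34.2 counts. The 174 genes without a symbol held at most 0.0178% of counts. No pair of libraries of a group agreed within counting noise. Replicate numbers follow accession order and pair nothing. Scripts were tested on simulated data.

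The 10 genes and all lists were chosen with earlier results of these data known. All 10 genes were named; of each pathway list, up to 3 called genes with the largest change and up to 2 in the other direction at 1 CPM or more, any gene of the origin, licensing and activation lists, and the 10 genes most correlated with the set. Alternatives were other scaling factors, filters and non-robust estimation, DESeq2 1.42.0, limma 3.58.1 on log2(TPM + 1) and log2(TPM + 0.1), fits of the libraries compared only, covariates, and leaving libraries out. Promoter letters were searched in RefSeq's table; Mcm4 had no entry. A protein comparison was planned but not run, since no protein table was used here.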

Additional observations from a re-analysis of the deposited data

Results flagged for a closer look

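In 6 of 40 combinations of gene and group, 1 library stood farther from its nearest neighbour in CPM than Dixon's limit for 6 samples. Chance gives about 1 in 20 for a single combination. The 40 are not independent, since the same libraries are read for each gene and most of the genes followed one another. The count of 6 therefore cannot be set against that rate. All 6 stood on the high side. Replicate 3 of the Mdr2-/- tumour livers was high for Mcm5 (19.7 CPM, next 12.9), Cdc45 (3.18, next 1.96) and Cdc6 (2.81, next 1.78). Replicate 5 of the Mdr2-/- controls was high for Cdc45 (7.10 CPM, next 4.01). Among wild-type controls, replicate 2 was high for Cdc45 (1.86 CPM, next 0.766) and replicate 1 for Cdc6 (1.28 CPM, next 0.468).

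The tumour effect differed between genotypes, by the edgeR test of the difference (Mdr2-/- minus wild type, log2), for Mcm2 (-2.29), Mcm3 (-1.99), Mcm4 (-1.86), Mcm5 (-2.996), Mcm6 (-3.62), Mcm7 (-1.27), Cdc45 (-2.58), Cdc6 (-2.63) and Cdt1 (-2.35).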

How the results depend on the processing

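No paired analysis was possible because the labels give no replicate numbers; those used follow accession order. Of 1492 values of called genes under the alternatives, 1446 kept direction and call, 46 kept direction only and 0 reversed. Of 468 values of uncalled genes, 50 reversed. These counts pool all comparisons and include 24 fits that leave out only 1 library. They do not show how losses of call gathered in the tumour effect in Mdr2-/-, which is given by setting below. Leaving out 1 library at a time, members called were 7 to 9 for the tumour effect in Mdr2-/-, 9 for that in wild type and for the difference, 10 for genotype in controls and 1 in tumour livers. Genes called were 4122 to 6932, 3521 to 5008, 3457 to 5437, 7712 to 9265 and 1116 to 2751 in the same order, against 5995, 4891, 4355, 8690 and 1917. Cdc45 lost its call in Mdr2-/- without tumour replicate 6 (-0.92, edgeR adjusted p = 0.0607) or control replicate 5 (-0.72, 0.0899), and Cdc6 without that control (-0.76, 0.0766).

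For the tumour effect in Mdr2-/-, members called were 6 with total library size, 6 with log2(TPM + 1), 3 with log2(TPM + 0.1), 1 with the nuclear RNA covariate, 3 without control replicates 5 and 6 and 0 below title number 2000; genes called were 1244 with the covariate, 3258 without the 2 controls, 1287 below 2000 and 1930 at 2000 or above. At 2000 or above, 5 members and 1063 genes were called for wild type, 1681 genes for the difference, 4100 for genotype in controls and 723 in tumour livers. The nuclear RNA covariate gave 2817 genes for the difference and 2939 for genotype in tumour livers, where total library size gave 2927, log2(TPM + 1) 3306 and log2(TPM + 0.1) 3069. The fits by title range and without 2 controls were chosen after seeing the data; below 2000 there is no wild-type tumour library. Total library size moved the median of all genes to 0.28, 0.33, 0.33 and 0.23 for Mdr2-/-, wild type, controls and tumour livers, and gave splits of 5565 higher and 924 lower, 5783 and 603, 7247 and 2325, and 2668 and 259. Upper-quartile factors gave 4058 and 1967 for Mdr2-/-. The cause was not tested.

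All reversals were of uncalled values. Mcm10 reversed for the difference with upper-quartile factors (0.029), the title covariate (0.40), the nuclear covariate (0.047) and without 2 controls (0.29), for wild type with the title covariate (-0.30) and at 2000 or above (-0.10), and for Mdr2-/- at 2000 or above (-0.15). Genotype in tumour livers reversed for Mcm4 and Mcm7 with upper-quartile factors (0.018 and 0.026); for Mcm4, Mcm5, Mcm6, Mcm7 and Cdt1 with total library size (0.21, 0.052, 0.067, 0.22 and 0.029); for Mcm3, Mcm4, Mcm5, Mcm6, Mcm7 and Cdt1 with log2(TPM + 1) (0.041, 0.23, 0.11, 0.13, 0.23 and 0.070) and log2(TPM + 0.1) (0.047, 0.26, 0.13, 0.15, 0.26 and 0.10); for Mcm4, Mcm7 and Cdt1 with the title covariate (0.12, 0.0058 and 0.21); for Mcm4 with the nuclear covariate (0.011); for Mcm4 and Mcm7 without the 2 libraries that stood apart (0.0036 and 0.022); and for Cdc6 at 2000 or above (-0.12). Leaving out 1 library at a time gave Mcm10 -0.24 to 0.12 for the difference (reversed in 3 fits) and, between tumour livers, Cdc6 -0.13 to 0.36 (5 fits), Mcm4 -0.12 to 0.11 (4), Mcm6 -0.27 to 0.017 (1) and Mcm7 -0.092 to 0.049 (4). Wild-type control levels of Cdc6 (7 to 21 counts) and Cdc45 (8 to 34) are limited by depth.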
